A study of Mus musculus with 7 samples.

Results

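The data describe 9 genes in hippocampal synaptoneurosomes: the intracellular fibroblast growth factors Fgf11, Fgf12, Fgf13 and Fgf14, the neuronal sodium channel alpha subunits Scn1a, Scn2a, Scn3a and Scn8a, and the beta subunit Scn2b. They were found by Ensembl identifier, version ignored, and are 9 of the 22248 genes and 62 of the 102392 transcripts in the deposited tables. Fgf14 was picked because its level was high in every AM6545 library, so its values are given as a description with no test. The other 8 genes were listed with it by family. All 9 genes passed the filter on low counts.

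Synaptoneurosomes are tissue fractions in which nerve endings reseal together with pieces of the postsynaptic side. They came from the hippocampus of female C57Bl/6J mice labelled wild type, with no transgene or other allele named. One group received AM6545 sub-chronically (4 libraries, replicates B, D, E and F) and the other received vehicle (3 libraries, replicates B, D and E). AM6545 is known as an antagonist of the cannabinoid CB1 receptor with little entry into the brain. The sources used here do not give the dose, the duration, the age of the mice or the number of mice behind a library, so p-values measure only the spread between these libraries, which may be technical.

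The intracellular FGFs look like growth factors but lack a secretion signal and stay in the cell. They bind the cytoplasmic tail of voltage-gated sodium channels and tune channel inactivation and placement at the axon initial segment, where action potentials start. Loss of FGF14 lowers neuronal firing and human FGF14 mutations cause a spinocerebellar ataxia. The alpha subunits form the pore, and the beta subunits are single-pass membrane proteins that modify gating and surface delivery.

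Library totals ran from 19174529 to 25894586 estimated counts. Vehicle replicate B stood apart on the first principal component, which held 34.2% of the variance. Every list of neuronal markers was present: the 7 excitatory neuron markers summed to between 3272 and 3792 TPM in AM6545 libraries and between 3531 and 3889 TPM in vehicle libraries, and the 7 interneuron markers to between 877 and 959 TPM and between 938 and 1075 TPM. TPM here is a level per transcript length, scaled to a common total. Of the excitatory markers, 6 were lower in AM6545 and 1 higher, where 51.4% of all genes tested were higher. Their median log2 difference was -0.33, against 0.01 for all genes tested, and the groups overlapped for each. For the interneuron markers the median was -0.04. RNA of other cells was also present, with no listed marker at 0. Microglia markers summed to between 936 and 976 TPM in AM6545 libraries and between 994 and 1212 TPM in vehicle libraries, without overlap, and 5 of 8 did not overlap singly, all 5 lower in AM6545, where 7.19% of all genes tested were lower without overlap. Oligodendrocyte markers (15379 to 18378 TPM and 12863 to 19412 TPM), astrocyte markers (2985 to 3948 TPM and 2999 to 3911 TPM) and choroid plexus markers (658 to 3226 TPM and 2369 to 4516 TPM) overlapped between AM6545 and vehicle libraries. Their part in the results was not tested, and in such bulk fractions fewer particles of a type and less RNA in each cannot be told apart.

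The sequences that set the main transcripts of these genes apart are shown first, from GENCODE release M21 on GRCm38. Fgf14 (ENSMUSG00000025551.14, chr14:123977907-124677127, minus strand) has a pair of annotated transcripts that start 484.225 kb apart and share their later exons. Their first coding exons differ, and they give the protein its alternative amino terminus. Fgf14-202 codes for 252 amino acids and Fgf14-201 for 247. In the coding part of each first exon, the start codon is in capitals. The first lies at chr14:124676510-124676717 and the second at chr14:124192329-124192521, both on the minus strand.
Fgf14-202: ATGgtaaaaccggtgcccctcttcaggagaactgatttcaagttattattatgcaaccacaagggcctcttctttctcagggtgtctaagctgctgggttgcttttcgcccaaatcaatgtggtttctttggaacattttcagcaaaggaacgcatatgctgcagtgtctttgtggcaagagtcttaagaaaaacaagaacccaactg
Fgf14-201: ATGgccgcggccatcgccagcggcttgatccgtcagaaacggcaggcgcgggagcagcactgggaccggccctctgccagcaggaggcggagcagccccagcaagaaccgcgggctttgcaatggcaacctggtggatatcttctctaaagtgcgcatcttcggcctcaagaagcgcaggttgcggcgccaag

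Scn8a (ENSMUSG00000023033.15, chr15:100869858-101045938, plus strand) has an internal coding exon with a choice of ends, of 357 or 387 bases. The longer end adds 30 bases, or 10 codons. Its sequence is shown because transcripts with and without it held different shares in the groups. Below, 30 bases of the shared exon in lower case lead into the extra bases in capitals, at chr15:100984016-100984075 (plus strand).
Scn8a: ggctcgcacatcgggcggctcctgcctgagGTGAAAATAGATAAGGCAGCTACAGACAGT

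Per transcript length, Fgf13 was by far the most abundant of the 9 genes, and Scn3a had the lowest mean over the 7 libraries. Averaged over the 7 libraries, the order was Fgf13 (234 TPM, range 175 to 282), Fgf12 (66.9 TPM, 49.5 to 85.6), Scn2a (46.5 TPM, 41.9 to 58.8), Scn8a (43.6 TPM, 37.9 to 48.5), Scn2b (30.5 TPM, 26.02 to 40.9), Scn1a (20.03 TPM, 16.7 to 26.4), Fgf14 (8.22 TPM, 5.73 to 10.8), Fgf11 (8.15 TPM, 6.40 to 9.47) and Scn3a (6.51 TPM, 5.46 to 7.88). The ranges of neighbours overlapped except between Fgf13 and Fgf12 and between Scn1a and Fgf14. The place of Fgf14 above Fgf11 and Scn3a rests on the AM6545 values that chose it, with a mean of 9.71 TPM. In vehicle libraries its mean was 6.24 TPM, below Scn3a (6.37 TPM) and Fgf11 (8.28 TPM). Fgf13 made up 72.8% to 75.6% of the summed FGF level and Fgf12 19.3% to 22.1%. Among the alpha subunits, Scn2a held 38.0% to 43.2% of the summed level, Scn8a 31.7% to 41.6%, Scn1a 14.5% to 19.7% and Scn3a 5.36% to 5.90%. With the longest transcript as the length, the level of Fgf12 was 32.5 TPM, below Scn2a and Scn8a.

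**Figure D1:**
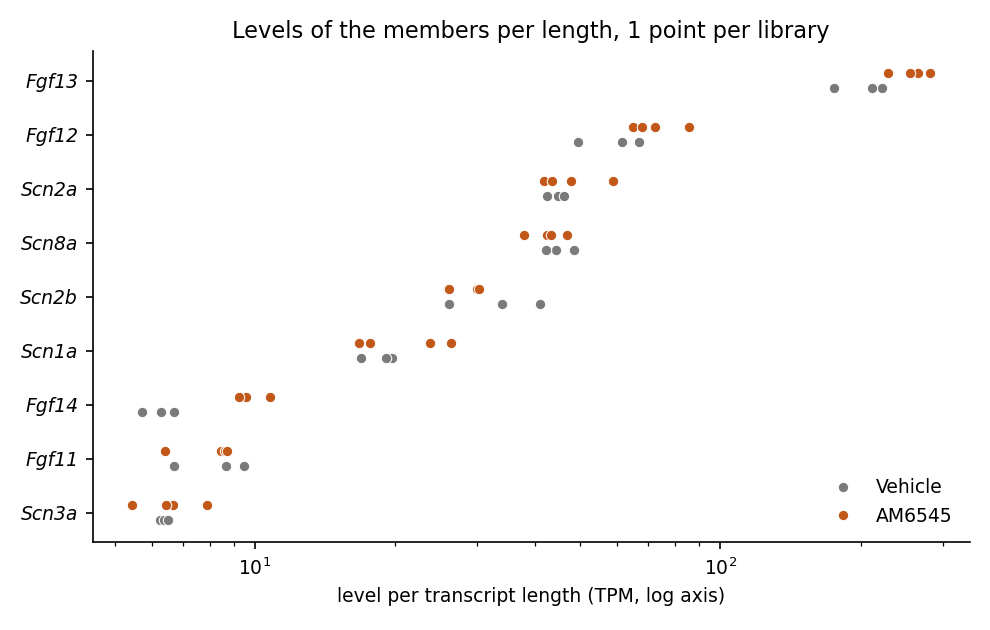
Level per transcript length of each gene (TPM, log axis) in the 3 vehicle libraries (grey) and the 4 AM6545 libraries (orange), 1 point per library. Fgf13 lies above every other gene in all 7 libraries, and Fgf14 is the one FGF other than Fgf13 whose groups do not overlap.

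Of the 8 genes other than Fgf14, none passed an adjusted p of 0.05 (edgeR's quasi-likelihood test, Benjamini-Hochberg over 14654 genes). The whole table gave 1 gene, or 0.00682% of those tested. At an unadjusted p under 0.05, Fgf13 was higher (859 genes, 5.86% of all tested) and Scn8a and Scn2b were lower (1275 genes, 8.7%), so 3 of 8 had such a p against 2134 genes or 14.6% in either direction. Among the 8, Fgf13 alone had groups that did not overlap, in a table where 13.8% of genes had such groups, 6.63% higher and 7.19% lower in AM6545. The median log2 difference of the 8 was -0.11, against 0.01 for all genes tested.

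Levels by library are given in CPM, counts scaled to a common library total with TMM factors, which is not comparable between genes of unequal length. Fgf14, whose product binds the tail of several neuronal sodium channels, was at 16.8, 16.9, 18.9 and 16.6 CPM in AM6545 replicates B, D, E and F and at 12.1, 12.2 and 12.3 CPM in vehicle replicates B, D and E. All 4 AM6545 libraries lay above all 3 vehicle libraries, which differed little among themselves. The means were 17.3 ± 1.05 CPM (SD, n = 4) and 12.2 ± 0.11 CPM (SD, n = 3), a log2 difference of 0.50. These are the values that chose the gene. On the per-length scale its share of the summed FGF level was 2.68% to 2.99% in AM6545 libraries and 2.19% to 2.40% in vehicle libraries.

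Fgf13 (ENSMUSG00000031137.18, chrX:59062145-59568071, minus strand) encodes the family member also known for microtubule binding in growing axons. It was at 292, 332, 344 and 319 CPM in AM6545 replicates B, D, E and F and at 260, 280 and 284 CPM in vehicle replicates B, D and E. The groups did not overlap, but AM6545 replicate B and vehicle replicate E lay close together. The means were 322 ± 22.4 CPM (SD, n = 4) and 275 ± 13.3 CPM (SD, n = 3), a log2 difference of 0.23 (SE 0.10) with an adjusted p of 0.315 in edgeR's test.

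Fgf12 (ENSMUSG00000022523.11, chr16:28160098-28753068, minus strand) encodes a family member of both brain and heart. It was at 55.0, 57.5, 70.0 and 61.2 CPM in the AM6545 libraries and at 49.0, 55.2 and 53.0 CPM in the vehicle libraries, in the same order of replicates. Only AM6545 replicate B, below vehicle replicate D, made the groups overlap. The log2 difference was 0.22 (SE 0.11; adjusted p 0.379, edgeR), and 0.14 without AM6545 replicate E. Fgf11 (ENSMUSG00000042826.14, chr11:69796068-69801857, minus strand), the family member with the least described role in channels, was at 9.86, 12.9, 12.9 and 13.1 CPM and at 15.6, 14.3 and 10.9 CPM. Its groups overlapped, and its log2 difference was -0.16 (SE 0.15; adjusted p 0.623, edgeR), with -0.05 without vehicle replicate B, -0.08 without AM6545 replicate B and -0.29 without vehicle replicate E.

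**Figure D2:**
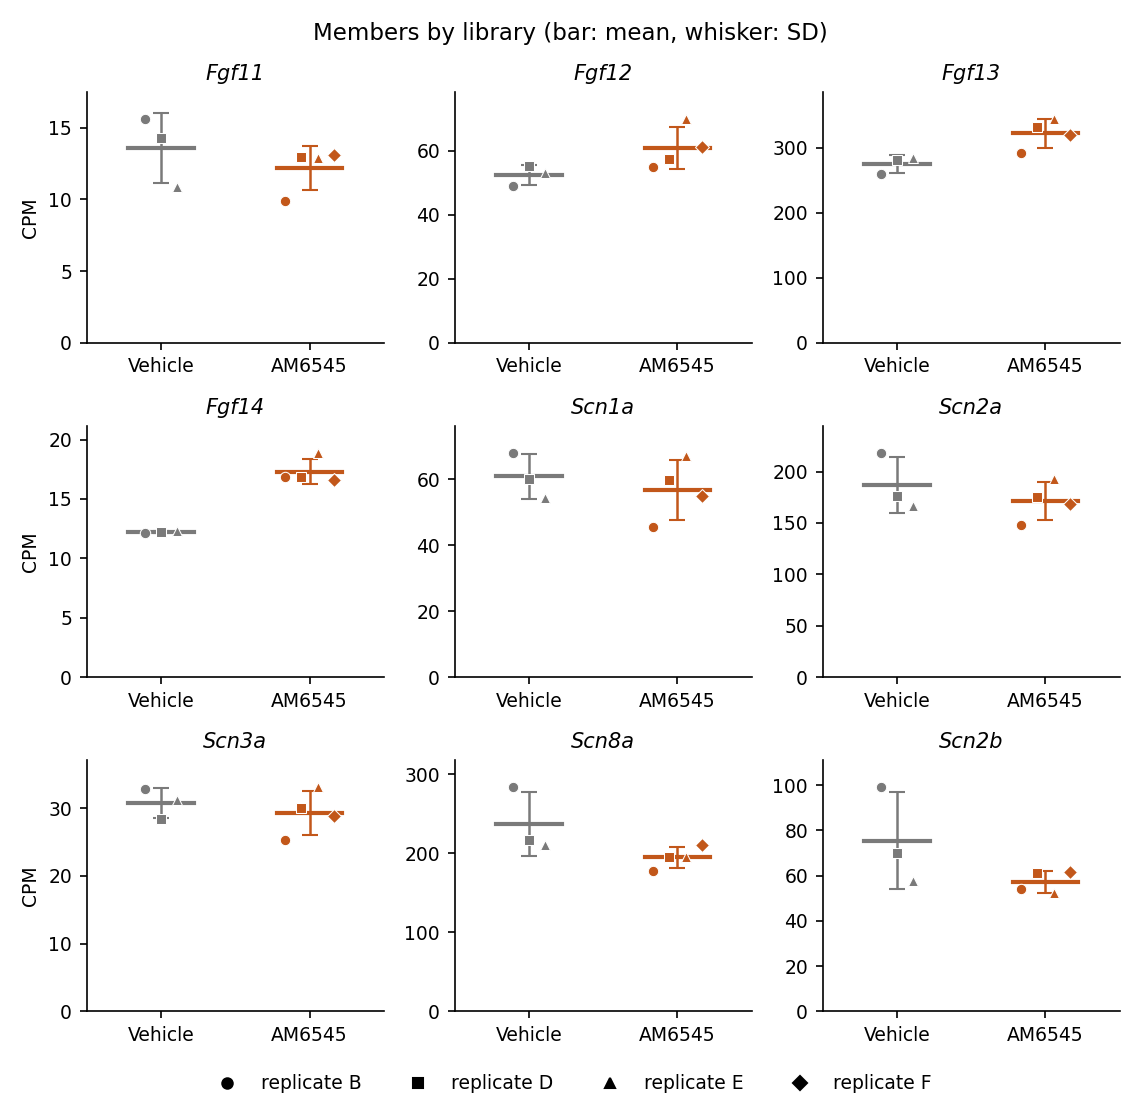
Level of each gene in CPM, with 1 symbol per library (the symbol gives the replicate letter, the bar the mean and the whisker the SD, n = 3 vehicle and n = 4 AM6545). Fgf14 and Fgf13 show no overlap between groups, and vehicle replicate B is the highest library for Scn8a and Scn2b at 284 and 99.0 CPM.

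Of the alpha subunits, Scn8a lay lowest in AM6545 relative to vehicle. Scn8a encodes the main channel of the mature axon initial segment and of nodes of Ranvier. It was at 178, 196, 195 and 211 CPM in AM6545 replicates B, D, E and F and at 284, 217 and 211 CPM in vehicle replicates B, D and E. AM6545 replicate F and vehicle replicate E met at about the same value, and vehicle replicate B stood far above the rest. The means were 195 ± 13.6 CPM (SD, n = 4) and 237 ± 40.3 CPM (SD, n = 3), a log2 difference of -0.28 (SE 0.12; adjusted p 0.309, edgeR). Without vehicle replicate B the log2 difference was -0.13. After a correction for GC content and length Scn8a was at -0.08 and no longer lowest, with Scn1a at -0.12 and Scn2a at -0.11.

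Scn2a (ENSMUSG00000075318.14, chr2:65620771-65767447, plus strand), the channel of early initial segments and of unmyelinated axons, was at 148, 175, 193 and 169 CPM in AM6545 libraries and 218, 176 and 166 CPM in vehicle libraries. Scn1a (ENSMUSG00000064329.14, chr2:66270778-66440840, minus strand), the main channel of fast-spiking interneurons, was at 45.4, 59.8, 67.1 and 55.0 CPM and at 67.9, 60.1 and 54.4 CPM. Scn3a (ENSMUSG00000057182.16, chr2:65457118-65567627, minus strand), known for its high level before birth, was at 25.3, 29.997, 33.1 and 28.8 CPM and at 32.8, 28.5 and 31.2 CPM. The groups overlapped for each of the 3 genes, with AM6545 replicate B the lowest of the AM6545 libraries and vehicle replicate B the highest vehicle library. The log2 differences were -0.13 (SE 0.12) for Scn2a, -0.10 (SE 0.13) for Scn1a and -0.07 (SE 0.11) for Scn3a, with adjusted p-values of 0.634, 0.746 and 0.782 in edgeR's test. Without vehicle replicate B the differences were 0.003, -0.009 and -0.02, and without AM6545 replicate B -0.07, -0.009 and -0.01, so the sign of Scn2a turned in the former. Without AM6545 replicate E they were -0.19, -0.19 and -0.13, without vehicle replicate E Scn2a and Scn1a were at -0.20 and -0.17, and without vehicle replicate D Scn3a was at -0.13. The sign of Scn3a turned with limma-voom (0.01).

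Scn2b (ENSMUSG00000070304.13, chr9:45117782-45130070, plus strand) encodes a beta subunit that is linked to the alpha subunit by a disulfide bond. It was at 54.1, 61.3, 52.2 and 61.7 CPM in AM6545 replicates B, D, E and F and at 99.0, 69.9 and 57.5 CPM in vehicle replicates B, D and E. Vehicle replicate E lay among the AM6545 libraries. The means were 57.3 ± 4.88 CPM (SD, n = 4) and 75.5 ± 21.3 CPM (SD, n = 3), a log2 difference of -0.40 (SE 0.16; adjusted p 0.291, edgeR). Single vehicle libraries decided this value: it was -0.15 without vehicle replicate B and -0.56 without vehicle replicate E, and in the latter fit Scn2b passed with an adjusted p of 0.0320, among 944 genes that did. Over its 16 alternatives the adjusted p ran from 0.0320 to 0.99999.

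On the per-length scale, the FGFs stood higher relative to the alpha subunits in every AM6545 library than in any vehicle library. The ratio of the summed FGF level to the summed alpha subunit level was 3.04, 2.92, 2.84 and 3.02 in AM6545 replicates B, D, E and F and 2.05, 2.62 and 2.60 in vehicle replicates B, D and E. Vehicle replicate B was the lowest of all. Fgf14 relative to Scn8a was 0.198 to 0.249 in AM6545 libraries and 0.118 to 0.151 in vehicle libraries, and Fgf13 relative to Scn8a was 5.46 to 6.51 and 3.61 to 5.02. These ratios are described with no test, since Fgf14 was chosen by its level and the ratios were formed with the members' values known.

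**Figure D3:**
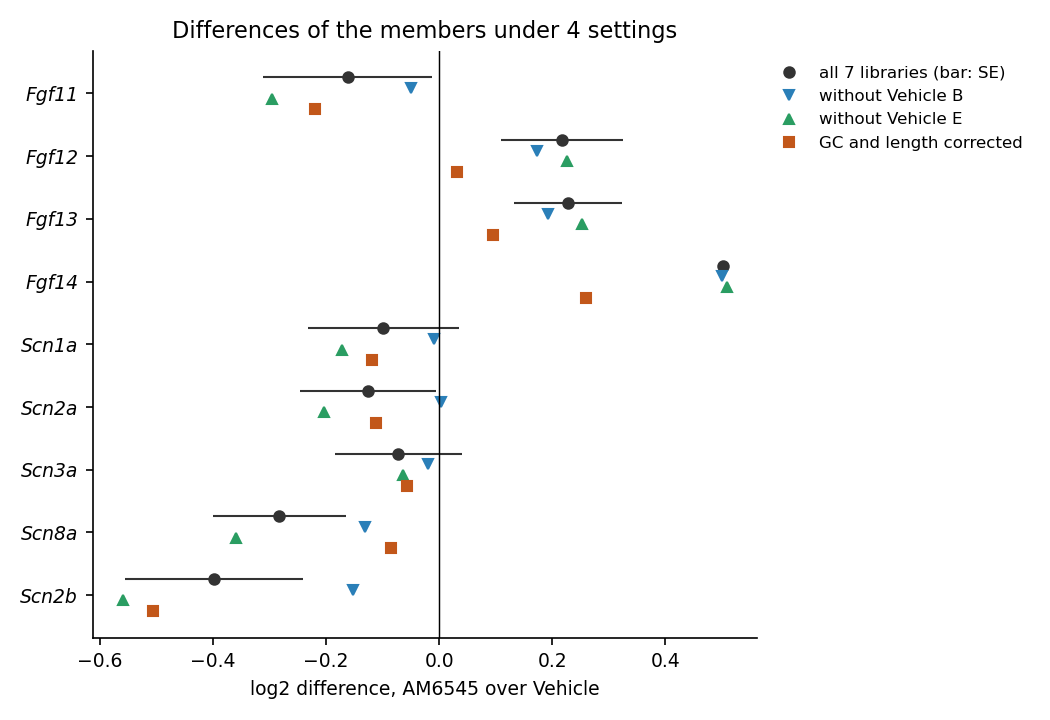
Log2 difference between AM6545 and vehicle for each gene with all 7 libraries (circle, bar of 1 SE, none for Fgf14), without vehicle replicate B, without vehicle replicate E, and after correction for GC content and length. The sodium channel genes move toward 0 without vehicle replicate B, and Fgf12, Fgf13 and Fgf14 move toward 0 with the correction.

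Over all genes tested, the median log2 difference fell as GC content rose, from 0.17 in the GC-poorest twentieth to -0.20 in the GC-richest. Each library has its own trend of level with GC content, and the slopes per 10 percentage points were -0.126 to -0.028 (log2) in AM6545 libraries and 0.055 to 0.141 in vehicle libraries. Transcripts of Fgf12 (40.1% GC) and Fgf14 (40.2% GC) belong to the GC-poor end, where the median log2 difference of all genes was 0.17 and 0.15 in their twentieths of the table. Scn1a, Scn2a and Scn3a are nearly as GC-poor, at 43.4%, 43.4% and 43.0%, and lay below the median of 0.13 in their twentieth. Scn8a (50.7% GC) and Scn2b (50.3% GC) lay below medians of -0.002 and 0.04. After a correction of every library for GC content and length, the log2 difference was 0.26 for Fgf14, 0.09 for Fgf13, 0.03 for Fgf12, -0.08 for Scn8a and -0.51 for Scn2b. It was -0.12 for Scn1a, -0.11 for Scn2a, -0.06 for Scn3a and -0.22 for Fgf11. The correction was joint, so the parts of GC content and of length were not told apart. None of the 8 tested genes passed, and no gene of the whole table did.

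**Figure D4:**
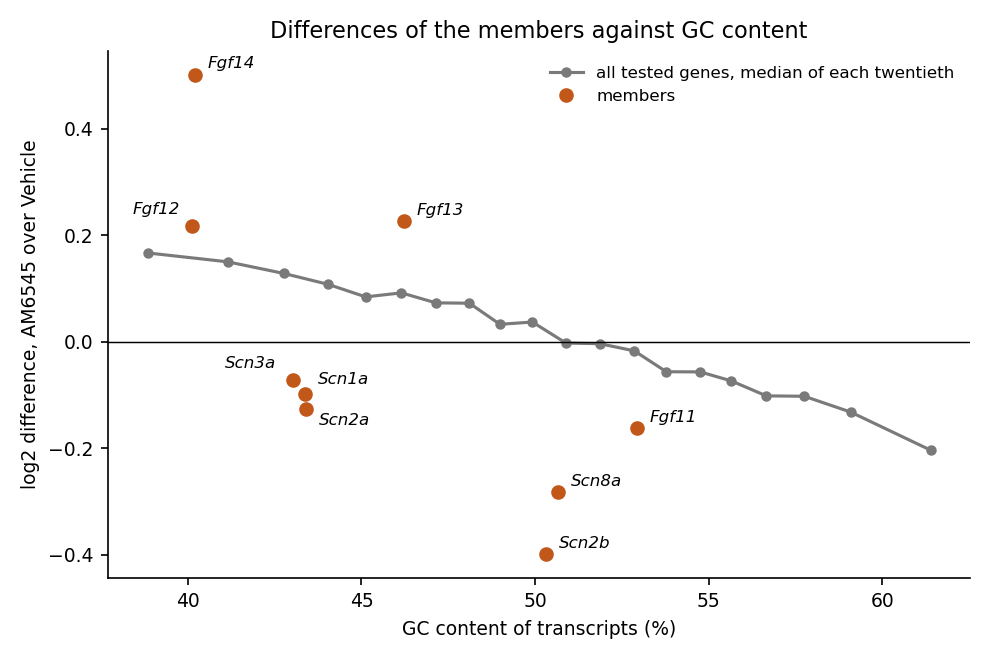
Log2 difference between AM6545 and vehicle against the GC content of each gene's transcripts (percent). The grey line joins the medians of all tested genes in 20 groups of rising GC content, from 0.17 to -0.20, and the orange points are the 9 genes, with Fgf14 farthest above the line and Scn2b farthest below.

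Within Scn8a, a different transcript held the largest share in each group. Scn8a-204, which carries the longer exon end shown above and codes for 1988 amino acids, held 27.7%, 29.8%, 4.78% and 28.5% of the Scn8a count in AM6545 replicates B, D, E and F and 58.6%, 56.5% and 57.3% in vehicle replicates B, D and E. All AM6545 libraries lay below all vehicle libraries, and AM6545 replicate E was lowest. Scn8a-205, with the shorter end and 1978 codons, held 53.0%, 55.2%, 72.2% and 50.8% in AM6545 libraries and 19.1%, 32.2% and 37.1% in vehicle libraries, again without overlap. Its estimated counts were 2181, 2831, 2998 and 2795 against 1342, 1729 and 1447. Shares did not overlap in 5 of 27 tested transcripts of the 8 genes (8.61% of 27940 transcript shares in the whole table). These were Scn8a-202, Scn8a-204, Scn8a-205, Scn8a-213 and Fgf12-205. Shares within a gene depend on each other, so those of Scn8a are not separate observations.

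Tested as levels, Scn8a-204 had a log2 difference of -1.62 (SE 0.55) and Scn8a-205 of 0.75 (SE 0.18), each with an adjusted p of 0.559 in edgeR's test over 33962 transcripts. The whole table gave 6 transcripts (0.0177%), and 0 of the 27 were among them. At an unadjusted p under 0.05 there were 2 higher and 3 lower of the 27, against 8.39% of all transcripts. With DESeq2, which called 431 transcripts, Scn8a-205 passed with an adjusted p of 0.0103 and Scn8a-204 did not (0.0996). Over all alternatives their adjusted p ran from 0.0103 to 0.882 and from 0.0996 to 0.918. Scn8a-204 lay at -1.29 without AM6545 replicate E.

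Summed over transcripts per length, those annotated with the longer Scn8a end in GENCODE release M21 made up 25.3%, 29.2%, 4.39% and 27.5% in AM6545 replicates B, D, E and F and 59.1%, 57.1% and 56.9% in vehicle replicates B, D and E. The means were 21.6% ± 11.6 (SD, n = 4) and 57.7% ± 1.23 (SD, n = 3). A two-sided exact permutation test gave p = 0.0571, the smallest value that 4 against 3 libraries allow, and 0.457 after Benjamini-Hochberg adjustment over 8 exon choices. The deposited estimates do not show which reads set them, and the annotation release behind them is not given in the sources used here. In GENCODE release M21, from which the exons were taken and which may differ from that release, Scn8a-204 differs from Scn8a-205 by the 30 bases, by a leading exon of 165 bases ahead of the coding sequence and by 9 bases at its 3' end.

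For the main transcripts of Scn1a, shares overlapped between the groups. Scn1a-201 (1998 codons) and Scn1a-203 (2009 codons) held most of the gene's count in each library, 34.4% to 55.5% and 28.8% to 51.1%. A shorter transcript, Scn1a-206, held 4.21% to 16.3%. The log2 differences were 0.01 (SE 0.23), -0.29 (SE 0.25) and 0.54 (SE 0.41), with adjusted p-values of 0.996, 0.797 and 0.768 in edgeR's test. Single libraries moved these values: Scn1a-201 ran from -0.18 to 0.28 over the libraries left out, Scn1a-203 lay at -0.10 without AM6545 replicate B, and Scn1a-206 lay at 0.24 without vehicle replicate B, 0.36 without AM6545 replicate E and 0.87 without vehicle replicate E.

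**Figure D5:**
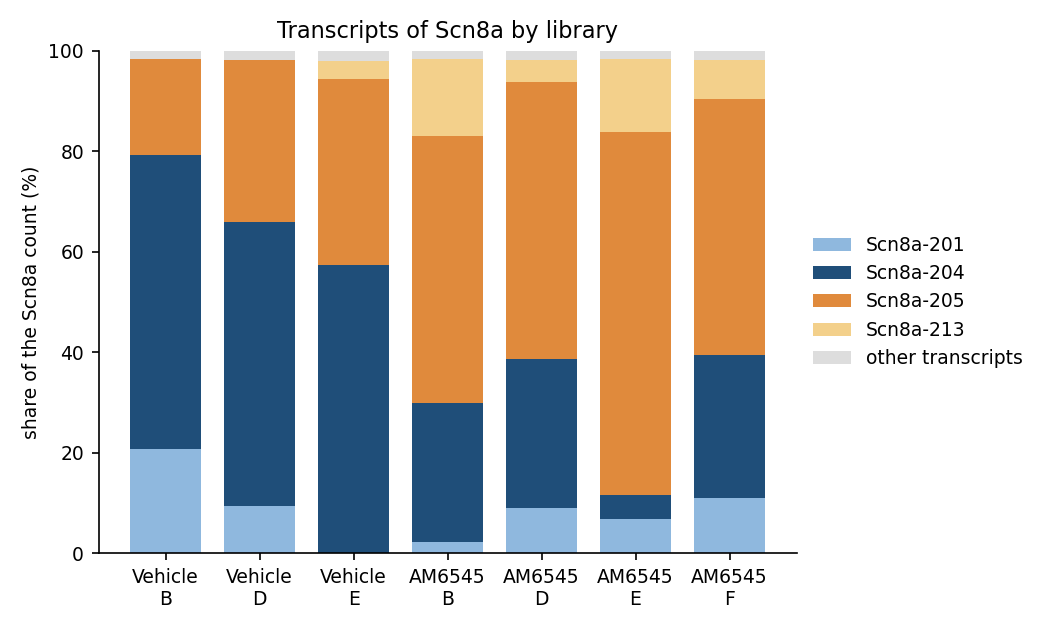
Share of the Scn8a count (percent) held by each transcript in the 3 vehicle and 4 AM6545 libraries, with the transcripts that hold under 10% in both groups summed in grey. Scn8a-204 takes 56.5% to 58.6% in vehicle libraries and at most 29.8% in AM6545 libraries, where Scn8a-205 takes at least 50.8%.

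Among the other transcripts of Scn8a, Scn8a-213 held 15.4%, 4.24%, 14.5% and 7.77% in AM6545 replicates B, D, E and F and was listed at 0, 0 and 3.50% in vehicle replicates B, D and E, without overlap. Tested as a level, its log2 difference was 3.09 (SE 1.63; adjusted p 0.666, edgeR). It ran from 2.49 to 11.9 over the libraries left out. Scn8a-201 held 2.28% to 10.98% and 0% to 20.7%, with overlap. In Scn2a a single transcript, Scn2a-202 (2006 codons), took 82.7% to 98.0% of the gene's count, and its log2 difference was -0.11 (SE 0.17; adjusted p 0.893, edgeR), running from -0.27 to 0.07 over the libraries left out.

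The FGF genes used few transcripts. Fgf14-202, with the first exon printed above, held 82.0%, 70.4%, 79.8% and 83.7% of the Fgf14 count in AM6545 replicates B, D, E and F and 79.0%, 84.6% and 100% in vehicle replicates B, D and E. Its estimated counts were 319, 311, 320 and 362 against 237, 255.2 and 228. Before scaling, every AM6545 library lay above every vehicle library. With the scaling used for the gene, the groups overlapped. AM6545 replicate D, with 70.4% of 16.9 CPM, fell below vehicle replicate E, with 100% of 12.3 CPM. The log2 difference of Fgf14-202 was 0.36. Fgf14-201 was at 70.2, 131, 81.2 and 70.6 counts against 63.1, 46.4 and 0, so it lay higher as well. The shares overlapped. These counts belong to the values that chose the gene.

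Fgf13-201, of 245 codons, held 97.5% to 98.9% of the Fgf13 count, and its log2 difference of 0.23 (SE 0.08; adjusted p 0.561, edgeR) was that of the gene. In Fgf12 the transcript with the largest share, Fgf12-206, is annotated as noncoding and held 54.0% to 60.8%. The coding Fgf12-205 (181 codons) held 28.6%, 27.1%, 25.6% and 27.3% in AM6545 libraries and 29.1%, 28.8% and 30.1% in vehicle libraries, without overlap, and Fgf12-201 (243 codons) held 7.58% to 14.5%. Fgf11-202 (225 codons) held 84.0% to 94.1% of Fgf11, with overlap. In Scn2b both transcripts code for the same 215 amino acids. Scn2b-201 took 87.2% to 93.0%, and Scn2b-202 had a log2 difference of -0.67 (SE 0.21; adjusted p 0.559, edgeR), moving to -0.42 without vehicle replicate B. In Scn3a, where both main transcripts code for 1947 amino acids, Scn3a-202 held 78.3% to 93.0%.

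Similar sequence may limit some of these values, an effect that was not measured. Coding sequences of the alpha subunits were 75.6% to 84.5% identical in pairs and those of the FGFs 63.6% to 71.3%. The share of words of 31 bases also found in other genes was 7.29% for Scn1a, 9.16% for Scn2a and 9.57% for Scn3a, mostly in each other, and 0.528% for Scn8a. It was 2.05% for Fgf11, 0.812% for Fgf12, 0.954% for Fgf13 and 3.95% for Fgf14. The gene that shared most words with each of these was not an FGF. Exons of Gm28932, on the opposite strand, overlap 220 bases or 5.26% of the Fgf14 exons. Gm28932 is not among the deposited genes, so its level here is not known. The sources do not say that strand was kept, so reads there cannot be told apart.

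Genes that work with these channels were taken as 5 lists: other sodium channel genes, axon initial segment and node partners, kinases and regulators of the FGF14 complex, FGF receptors, and secreted FGFs. Of 55 genes 48 were tested and none passed the adjusted p of 0.05, while 3 higher and 5 lower had an unadjusted p under 0.05, close to the 14.6% of all genes tested (5.86% higher and 8.7% lower). The initial segment list lay lower, with 10 of 13 genes below vehicle and a median log2 difference of -0.16 against 0.01 for all genes. The excitatory neuron markers lay lower still, with a median of -0.33. In 4 of these 13 the groups did not overlap, each lower in AM6545 (7.19% of all genes did so).

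Named lower partner genes belong to the initial segment and node. Ank3 (ENSMUSG00000069601.15), which encodes the ankyrin that anchors sodium channels, was at 110, 115, 113 and 116 CPM in AM6545 replicates B, D, E and F and at 164, 131 and 125 CPM in vehicle replicates B, D and E. Every AM6545 library lay below every vehicle library. Its log2 difference was -0.30 (SE 0.11; adjusted p 0.261, edgeR). Cntn2 (ENSMUSG00000053024.15), an adhesion protein beside nodes, was at 36.3, 42.0, 47.2 and 45.8 CPM against 59.9, 58.8 and 43.9 CPM, with overlap (log2 difference -0.34, SE 0.13, adjusted p 0.277, edgeR). Without vehicle replicate B the differences were -0.17 and -0.26, and without vehicle replicate E Cntn2 passed (adjusted p 0.0361, the lowest over its alternatives, which reached 0.99999).

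On the higher side, Jak2 (ENSMUSG00000024789.14), a kinase reported to act on the FGF14 and sodium channel complex, was at 15.2, 19.01, 19.4 and 17.6 CPM against 13.0, 14.8 and 14.1 CPM, without overlap (log2 difference 0.35, SE 0.12, adjusted p 0.248, edgeR). Fgf10 (ENSMUSG00000021732.15), a secreted FGF, was at 13.0, 13.5, 13.9 and 14.7 CPM against 11.5, 11.2 and 10.6 CPM, also without overlap (log2 difference 0.31, SE 0.11, adjusted p 0.261, edgeR). Wee1 (ENSMUSG00000031016.10), a cell cycle kinase, was at 19.2, 18.1, 21.6 and 18.7 CPM against 13.7, 15.5 and 18.8 CPM, with overlap (log2 difference 0.28, SE 0.13, adjusted p 0.335, edgeR). After the GC and length correction Jak2 lay at 0.22, Fgf10 at 0.09, Wee1 at 0.18 and Cntn2 at -0.16, while Ank3 did not move toward 0 (-0.32). Wee1 lay at 0.19 without vehicle replicate B. Fgf20 was listed at 0 in all libraries.

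The 5 genes whose pattern over the 7 libraries was most like that of Fgf14, by root mean square difference of centred log2 CPM, were Gm32687 (0.040), Zfp654 (0.066), Nrip3 (0.069), Rev1 (0.070) and Slc25a40 (0.079). Rev1 encodes a DNA polymerase for damaged templates and Slc25a40 a mitochondrial carrier. Since Fgf14 was picked for its level in AM6545 libraries and these genes for their likeness to it, their values are a description that supports nothing; Nrip3, for example, was at 195 to 229 CPM with AM6545 and at 152 to 166 CPM with vehicle. Of 14653 genes ranked this way, Fgf13 was at 283 and Fgf12 at 472, while Fgf11 and the sodium channel genes ranked from 7015 to 13725, which restates how their levels differed between the groups.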

How the data were processed

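RNA of hippocampal synaptoneurosomes was purified with an RNeasy kit and made into libraries with a SMARTer Ultra Low Input kit, per the labels' protocols. The deposited tables hold the authors' estimated counts per gene and per transcript, unscaled, 1 column per library. Salmon 1.5.2 and the build mm10 are named in the submitters' processing notes; the annotation release is not given in the sources used here.

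Names, exons, lengths and sequences came from GENCODE release M21 (GRCm38), in which 22148 of 22248 gene and 101527 of 102392 transcript identifiers matched with versions ignored. Deposited versions are mostly higher, so lengths and exon structures may differ from those used for counting. Unmatched transcripts held 0.718% of transcript counts.

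Estimated counts were rounded and tested with edgeR 4.0.16 (R 4.3.3): TMM scaling, filterByExpr, robust quasi-likelihood fit, no covariates, Benjamini-Hochberg over all genes or transcripts, threshold 0.05. Differences are AM6545 over vehicle, and SE is the absolute log2 difference over the square root of F. TPM and shares were computed from the estimated counts and GENCODE lengths, exon shares from transcripts that hold each exon. The fits were tested on simulated counts. Alternatives were DESeq2 1.42.0, limma-voom 3.58.1, other scalings and count filters, GC and length correction (lowess, span 0.3), a replicate block, and each library left out.

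The members and lists were chosen with earlier results of these data known. Named were all members, their transcripts with a mean share of at least 10% in either group, partner genes past the threshold or else the 3 with the smallest p in each direction, and the 5 genes nearest to Fgf14. Some results that these rules name are not reported here.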

Additional observations from a re-analysis of the deposited data

Results flagged for a closer look

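In 4 libraries of a group, a library was singled out when its gap to the nearest other exceeded 0.829 of the range (Dixon's 95% value). Over 32 values in AM6545 libraries, those of Fgf14 left out, this found 4, where chance gives about 1 in 20, and vehicle with 3 libraries could not be tested. The CPM of Fgf11 was 9.86 in AM6545 replicate B against 12.9 to 13.1 in the other AM6545 libraries. The other 3 values are of AM6545 replicate E: the share of Scn8a-204 was 4.78% against 27.7% to 29.8%, that of Scn3a-201 was 6.85% against 12.9% to 14.1%, and that of Scn3a-202 was 93.0% against 85.9% to 87.1%. The last pair makes up nearly all of Scn3a and is 1 observation.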

How the results depend on the processing

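Of the 8 members other than Fgf14, 0 passed in every alternative but one, 1 (Scn2b) without vehicle replicate E; without each library in turn the count ran from 0 to 1. Partner genes past the threshold ran from 0 to 2 over the same fits. The count over all genes, 1 with all libraries, was 247 with DESeq2, 118 with limma-voom, 2 with a mean of at least 50 counts and 0 with the GC and length correction, and 0 to 944 over the libraries left out, highest without vehicle replicate E. The count of transcripts, 6 with all libraries, was 431 with DESeq2, 10 with a mean of at least 50 counts, 27 with no low-count filter, 0 with the replicate block and 1 to 14 over the libraries left out. DESeq2 called 1 member transcript, Scn8a-205.

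Fgf14 kept its direction, from 0.26 to 0.54 over all alternatives, lowest with the GC and length correction (0.26) and 0.27 with the correction and the block. Its direction over the libraries left out is no support. In the values that chose it, every AM6545 library lay above every vehicle library. The log2 differences of 8 genes or transcripts turned sign, with no call on either side. Scn3a turned with limma-voom (0.0091), and Scn3a-202 with total count scaling (0.021). Over the libraries left out, log2 differences ran from -0.20 to 0.0029 for Scn2a, -0.11 to 0.066 for Scn3a-202, -0.27 to 0.073 for Scn2a-202, -0.18 to 0.28 for Scn1a-201, -0.71 to 0.10 for Fgf11-201, -0.28 to 0.024 for Fgf11-202 and -1.46 to 0.47 for Scn8a-201. Untested share differences, in percentage points, also turned: Fgf11-202 from 1.47 to -1.01 and the longer exon end of Fgf11 from 1.68 to -1.15 without vehicle replicate D, Fgf12-206 from 0.93 to -0.88 and Scn8a-201 from -2.83 to 2.48 without vehicle replicate B, and Fgf12-201 from 0.86 to -0.47 and Scn2a-202 from 1.30 to -3.41 without vehicle replicate E. With limma-voom and without 1 library, the cause was not tested.

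Libraries of the same replicate letter did not deviate together. Same-letter correlations of deviations from the group means were -0.26, -0.13 and -0.18, and those of unlike letters ran from -0.17 to 0.22. Whether the letters mark shared cohorts or preparations is not known. With the replicate block 1 gene passed, 0 members and 0 partner genes did, and Scn2b was at -0.40 (adjusted p 0.609, edgeR). Fgf11 and Fgf14 rest on the fewest reads, 200.9 to 441.9 estimated counts a library, and intervals for single counts were not computed because Salmon's estimates share reads between transcripts.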
